A study of Homo sapiens with 16 samples.

Results

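Activins and the transforming growth factors beta (TGF-beta) form a branch of a large family of secreted dimeric ligands. Activin A is a dimer of the beta A subunit (INHBA) and activin B a dimer of the beta B subunit (INHBB). Both bind type II activin receptors, TGF-beta binds TGFBR2, and each recruits a type I receptor (TGFBR1 for TGF-beta) that phosphorylates SMAD2 and SMAD3. Follistatin (FST) and follistatin-like 3 (FSTL3) bind activins and block them, betaglycan (TGFBR3) presents TGF-beta, above all TGFB2, to the receptors, and SMAD7 is an inhibitory SMAD that the pathway itself induces. In breast carcinoma the pathway is known for growth arrest in early lesions and for mesenchymal and invasive traits in later ones.

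The 10 genes described here are the ligand genes INHBA, INHBB, TGFB1 and TGFB2, the receptor genes TGFBR1, TGFBR2 and TGFBR3, and the inhibitor genes FST, FSTL3 and SMAD7. They were chosen by symbol, with earlier results of these data known. All 10 were found among the 57820 genes of the count and TPM files (TPM is a transcript level scaled for length and depth). All 10 passed the filter of at least 10 counts over the 8 libraries of a serum condition, which left 16069 genes to test in low serum and 15414 for standard serum.

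Bulk RNA-Seq was performed on sublines of MDA-MB-231 and MDA-MB-436, mesenchymal triple-negative breast cancer lines, that carry the 7TGP reporter, in which Tcf/Lef binding sites drive eGFP. Repeated sorting by eGFP gave a reporter-negative (7TGP-NEG) and a reporter-positive (7TGP-POS) population of each line, so a subline is a sorted, puromycin-selected population and not a clone. Each population was cultured in low serum (0.5% FBS, harvested on day 3) or standard serum (10% FBS, day 6), with 2 replicates in each of the 8 groups and 16 libraries in all. By the study's methods, low serum RNA was depleted of ribosomal RNA and standard serum RNA was selected for poly(A), with another kit and sequencer for each, whereas the labels name the same stranded mRNA kit for all libraries. Serum and days in culture, and by the methods library preparation, therefore cannot be told apart, and values of the serum conditions are set side by side without a test. The methods also give a DMEM-based medium for the MDA-MB-231 sublines and RPMI for those of MDA-MB-436, where the labels give DMEM for both, so line and medium cannot be told apart if the methods hold.

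The libraries held 27918418 to 32667756 counts on genes in low serum and 31827130 to 46044073 in standard serum. The median SD between replicates, on the log2 scale over genes that averaged 1 CPM or more, was highest in the standard serum libraries of MDA-MB-436 7TGP-POS (0.0936) and ranged from 0.0438 to 0.0668 among the remaining 7 groups. The mesenchymal genes VIM and ZEB1 were expressed in both lines (VIM at 369 to 3882 TPM), CDH2 and TWIST1 were expressed in MDA-MB-436 and stayed at or under 0.66 TPM in MDA-MB-231, and CDH1 (E-cadherin) reached at most 0.15 TPM in any library. Of the other epithelial markers, the keratin genes KRT8 and KRT18 were expressed in both lines, at 183.85 to 372.85 and 73.87 to 431.66 TPM. KRT19 lay at 484 to 1114.9 TPM and EPCAM at 6.96 to 12.11 in MDA-MB-231, against at most 1.21 and 4.33 in MDA-MB-436. ESRP1 reached at most 1.2 TPM and GRHL2 0.08. The hormone receptor genes ESR1 and PGR reached at most 0.2 TPM, while ERBB2, the HER2 gene, lay at 16.91 to 27.83 TPM. The leukocyte gene PTPRC lay at 0.53 to 4.04 TPM in MDA-MB-231 and at most 0.12 TPM in MDA-MB-436, while CD3E (T cells) and CD68 (macrophages) stayed at or under 0.23 TPM.

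The promoter sequences of 3 of the 10 genes are shown first, because these genes carry the largest changes between the sublines among the ligand genes and RefSeq gives each a single start. Each is the 250 bases upstream of the RefSeq start (GRCh38.p14), written 5' to 3' on the gene's strand in lower case. Capitals mark CAGACA, a SMAD-binding motif. Also searched on both strands were ATCAAAG, the core of the Tcf/Lef element in the reporter, and TGANTCA, an AP-1 motif. The INHBA window lies at chr7:41742689-41742938 on GRCh37, minus strand, inside the interval of the gene in Gencode and outside annotated exons, and 42.8% of its bases are G or C.
INHBA promoter: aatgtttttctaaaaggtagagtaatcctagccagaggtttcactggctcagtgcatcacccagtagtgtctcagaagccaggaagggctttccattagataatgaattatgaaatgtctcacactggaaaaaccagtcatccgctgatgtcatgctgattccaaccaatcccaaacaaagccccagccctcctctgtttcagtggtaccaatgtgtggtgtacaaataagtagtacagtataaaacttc
The INHBB window lies just before the gene at chr2:121103462-121103711, plus strand, overlaps no exon, and has a G or C at 89.6% of positions.
INHBB promoter: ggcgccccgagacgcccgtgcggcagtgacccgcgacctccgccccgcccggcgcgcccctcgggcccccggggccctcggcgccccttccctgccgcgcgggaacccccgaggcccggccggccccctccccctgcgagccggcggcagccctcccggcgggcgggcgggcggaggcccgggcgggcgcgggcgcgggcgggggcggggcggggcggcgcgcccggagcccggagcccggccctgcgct
The TGFB2 window lies just before the gene at chr1:218518428-218518677, plus strand, overlaps an exon of the antisense RNA TGFB2-AS1, and has a G or C at 50.4% of positions.
TGFB2 promoter: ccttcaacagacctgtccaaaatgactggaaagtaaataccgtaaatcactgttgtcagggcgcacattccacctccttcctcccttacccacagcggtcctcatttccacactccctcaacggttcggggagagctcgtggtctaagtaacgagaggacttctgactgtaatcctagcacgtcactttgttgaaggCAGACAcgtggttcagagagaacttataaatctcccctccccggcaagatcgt

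None of these 3 windows holds ATCAAAG or TGANTCA. TGFB2 holds CAGACA at -53 to -48 from its start. Over the 35116 windows of this length in the RefSeq table, 2.26% hold ATCAAAG, 13.6% hold CAGACA and 6.57% hold TGANTCA. RefSeq lists 20 windows for the 10 genes, TGFBR1 having 8 of them, and none holds ATCAAAG. The other matches are TGANTCA in the FST window (-160 to -154) and CAGACA or its reverse complement in 2 alternative TGFBR1 windows. A match or its absence describes these letters in these windows only.

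Levels are given below as normalised CPM, read counts set to a common library size after scaling by TMM (edgeR's correction for composition), and differences as log2 fold changes of 7TGP-POS over 7TGP-NEG with their standard errors (SE). A gene is said to have risen or fallen where the adjusted p (Benjamini-Hochberg) of edgeR's quasi-likelihood test was under 0.05. It is called a DEG, the study's term, where the absolute log2 fold change was also at least 1.

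INHBA rose and INHBB fell in the reporter-positive subline of both lines in both serum conditions, and INHBB missed the fold change of a DEG only in MDA-MB-231 in low serum. INHBA went from 3.78 and 4.28 normalised CPM in the 2 MDA-MB-231 7TGP-NEG libraries to 59.8 and 62.1 in 7TGP-POS in low serum, and from 3.04 and 2.77 to 110 and 108 in standard serum. In MDA-MB-436 it went from 1.70 and 1.60 to 5.93 and 4.92 in low serum, and from 0.638 and 0.744 to 16.6 and 14.0 in standard serum. Every reporter-positive library lay above every reporter-negative library of its line and serum condition. The log2 fold changes in MDA-MB-231 were 3.92 (SE 0.1001, adjusted p = 7.05e-30 from edgeR's quasi-likelihood test) in low serum and 5.23 (SE 0.119, adjusted p = 7.64e-16) in standard serum. In MDA-MB-436 they were 1.72 (SE 0.161, adjusted p = 4.87e-12) and 4.46 (SE 0.148, adjusted p = 6.48e-14, same test). On the log2(TPM + 1) scale the low serum change in MDA-MB-436 was 0.75 and not a DEG. INHBA lay there at 0.58 to 1.79 TPM, close to the added 1, and stayed a DEG on the log2(TPM + 0.1) scale. The values from edgeR are folds of 15.1, 37.6, 3.29 and 21.96. In bulk RNA, fewer cells that express a gene and less RNA per cell cannot be told apart.

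For INHBB, the beta B subunit, MDA-MB-231 7TGP-NEG held 19.5 and 19.8 normalised CPM in low serum against 9.29 and 11.1 in 7TGP-POS. In standard serum the values were 53.2 and 50.9 against 6.03 and 5.34. MDA-MB-436 held far less of it, 1.19 and 1.71 against 0.435 and 0.481 in low serum and 0.986 and 0.918 against 0.247 and 0.280 in standard serum. The lowest of these rest on few reads, 13 in each library in low serum and, in standard serum, 12 and 11. Groups did not overlap in any of the 4 comparisons. The log2 fold change in MDA-MB-231 was -0.94 (SE 0.110, adjusted p = 2.32e-09 by edgeR) in low serum, short of a DEG, and -3.20 (SE 0.110, adjusted p = 1.63e-13) in standard serum. Without replicate 2 of MDA-MB-231 7TGP-POS the low serum value was -1.08 and passed as a DEG. In MDA-MB-436 the changes were -1.64 (SE 0.314, adjusted p = 2.58e-05) and -1.85 (SE 0.261, adjusted p = 1.23e-05, same test). On the log2(TPM + 1) scale they were -0.76 and -0.67, short of a DEG, and the low serum change did not pass a test against a fold of 2 (glmTreat, adjusted p = 0.115). INHBB lay at 0.31 to 1.46 TPM in that line, and both changes stayed DEGs on the log2(TPM + 0.1) scale.

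Both genes can be set against each other within a library on the TPM scale, which is per length. INHBA made up 7.64% and 8.46% of the summed INHBA and INHBB TPM in MDA-MB-231 7TGP-NEG and 73.3% and 70.3% in 7TGP-POS in low serum. The shares were 2.37% and 2.27% against 88.6% and 89.6% in standard serum. In MDA-MB-436 they were 37.8% and 28.4% against 85.2% and 81.2% in low serum, and 21.4% and 25.3% against 96.6% and 95.5% in standard serum. On this scale INHBB was thus the more abundant of the 2 transcripts in all 8 reporter-negative libraries, and INHBA in all 8 reporter-positive ones. By reads the order was the other way in replicate 1 of MDA-MB-436 7TGP-NEG in low serum, with 53 for INHBA and 37 for INHBB. Expressed as a ratio of TPM values, INHBA ranged from 0.0232 times INHBB (MDA-MB-231 7TGP-NEG, standard serum) to 28.3 times (MDA-MB-436 7TGP-POS, standard serum). The latter rests on 12 INHBB reads.

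**Figure D1:**
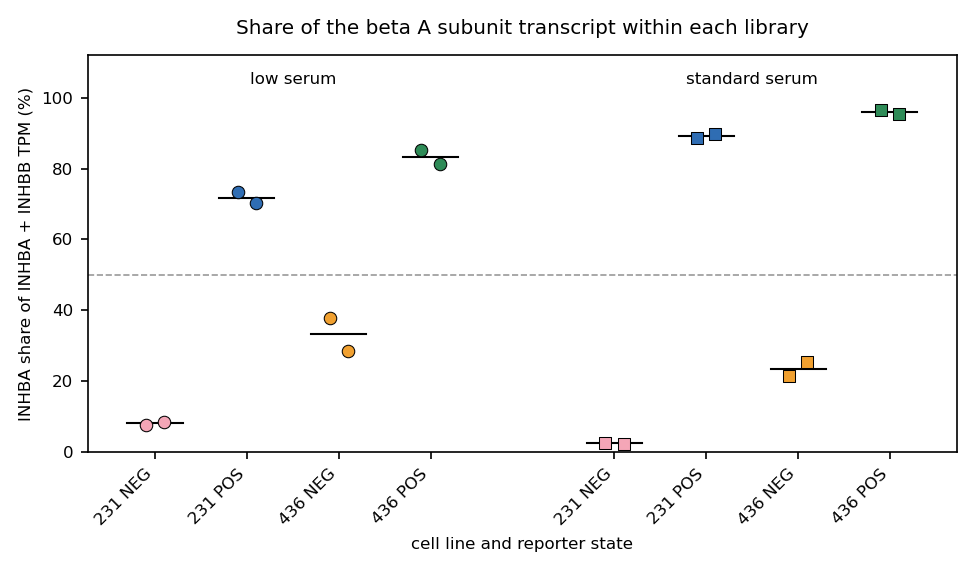
Share of INHBA in the summed TPM of INHBA and INHBB, in percent, for each of the 16 libraries (points) with the mean of the 2 replicates (lines), by cell line, reporter state and serum condition; the dashed line marks equal levels. The reporter-negative libraries lie between 2.27% and 37.8% and the reporter-positive ones between 70.3% and 96.6%.

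The TGF-beta ligand genes behaved differently from each other. TGFB2, one of the 3 TGF-beta ligands and the one that depends most on betaglycan, held 74.2 and 71.5 normalised CPM in MDA-MB-231 7TGP-NEG and 108 and 110 in 7TGP-POS in low serum. In standard serum it held 89.8 and 86.9 against 94.4 and 91.3. In MDA-MB-436 the values were 19.7 and 20.4 against 59.3 and 60.6 in low serum, and 13.6 and 14.0 against 71.3 and 63.8 in standard serum. All 4 pairs of groups were apart, but by very different distances. TGFB2 rose as a DEG in MDA-MB-436, with log2 fold changes of 1.58 (SE 0.0641, adjusted p = 1.89e-23 by edgeR) and 2.29 (SE 0.0856, adjusted p = 3.54e-13). In MDA-MB-231 it rose by 0.58 (SE 0.0555, adjusted p = 1.77e-11) in low serum, while the change of 0.07 (SE 0.0779) in standard serum did not pass (adjusted p = 0.530, same test).

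TGFB1, the ligand that most tumour cells secrete in latent form, passed the test in none of the 4 comparisons. It lay at 80.1 to 103 normalised CPM in the 4 MDA-MB-231 libraries in low serum and at 131 to 133 in standard serum, and at 21.5 to 23.8 and 20.7 to 27.7 in those of MDA-MB-436. The log2 fold changes lay between -0.20 (MDA-MB-436, standard serum, adjusted p = 0.0909) and 0.04 (MDA-MB-436, low serum, adjusted p = 0.791, edgeR). Reporter-positive and reporter-negative values overlapped in all but MDA-MB-436 in standard serum. A change passed in 2 comparisons once 1 library was left out, at -0.26 in MDA-MB-231 in low serum without replicate 2 of 7TGP-NEG and at -0.39 in MDA-MB-436 in standard serum without replicate 2 of 7TGP-POS. Within a library, TGFB2 stood at 0.317 to 0.575 times TGFB1 in TPM in the reporter-negative libraries of MDA-MB-436 and at 1.53 to 2.16 times in its reporter-positive ones, whereas all 8 MDA-MB-231 libraries lay between 0.415 and 0.862. TGFB1 overlaps protein-coding genes on the opposite strand (HNRNPUL1, CCDC97 and TMEM91), and the strand setting of the counting is not given in the sources used here.

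Antisense RNAs are annotated opposite INHBA and TGFB2. INHBA-AS1 held 0 to 8 counts per library, at most 5.31% of the INHBA count, and TGFB2-AS1 held 1 to 23 counts, at most 1.10% of the TGFB2 count.

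TGFBR2, the type II receptor that binds TGF-beta and starts signalling, was the most abundant receptor transcript in the set. It held 886 and 907 normalised CPM in MDA-MB-231 7TGP-NEG against 770 and 805 in 7TGP-POS in low serum, and 761 and 723 against 701 and 639 in standard serum. In MDA-MB-436 it held 65.7 and 63.8 against 169 and 167 in low serum, and 35.8 and 35.4 against 85.0 and 78.0 in standard serum. Thus it went down slightly in one line and up in the other, and no groups overlapped. In MDA-MB-436 it rose as a DEG by 1.38 (SE 0.0528, adjusted p = 2.69e-24 by edgeR) and 1.19 (SE 0.0799, adjusted p = 9.47e-10) on the log2 scale. In MDA-MB-231 the changes were -0.19 (SE 0.0480, adjusted p = 0.0016) in low serum and -0.15 (SE 0.0753, adjusted p = 0.150, same test) in standard serum. The latter passed without either of the MDA-MB-436 7TGP-POS libraries, at -0.16.

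TGFBR1, the type I receptor kinase, moved little. Its log2 fold changes were 0.18 (SE 0.0504, adjusted p = 0.00294) in MDA-MB-231 in low serum, -0.07 (adjusted p = 0.614) there in standard serum, 0.12 (adjusted p = 0.0727) in MDA-MB-436 in low serum and 0.48 (SE 0.0985, adjusted p = 0.000547, edgeR) there in standard serum. On the scale of the deposited TPM, the small rise in MDA-MB-231 in low serum was -0.017, and it did not pass without replicate 2 of 7TGP-NEG (0.16). The low serum change in MDA-MB-436 passed without either of the MDA-MB-231 7TGP-POS libraries (0.12). Its replicates differed in the standard serum libraries of MDA-MB-436 7TGP-POS, with 45.3 and 36.2 normalised CPM, and both lay above the 29.4 and 29.0 of 7TGP-NEG. Without the first of them the change was 0.30. The balance of the receptors differed by line. TGFBR2 stood at 6.93 to 9.29 times TGFBR1 in TPM in MDA-MB-231 in low serum and at 18.6 to 21.2 times in standard serum. In MDA-MB-436 the ratio was 1.47 to 1.78 in the reporter-negative libraries and 2.73 to 3.59 in the reporter-positive ones.

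TGFBR3, the co-receptor betaglycan, fell in 3 of 4 comparisons. In MDA-MB-231 it went from 26.0 and 25.7 normalised CPM to 18.3 and 19.5 in low serum (log2 fold change -0.45, SE 0.0798, adjusted p = 9.95e-06 by edgeR). In standard serum it went from 32.0 and 29.2 to 14.0 and 13.4, a DEG at -1.16 (SE 0.102, adjusted p = 7.49e-08). That call was lost on the log2(TPM + 1) scale (-0.995) and against a fold of 2 (glmTreat, adjusted p = 0.372). MDA-MB-436 held 21.1 and 19.6 against 20.6 and 20.3 in low serum, which overlapped (log2 fold change 0.0026, adjusted p = 0.993). In standard serum it held 6.79 and 6.35 against 4.42 and 4.71, a fall of 0.53 on the log2 scale (SE 0.118, adjusted p = 0.00121, same test).

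Among the inhibitors, no change reached a DEG. FST, the secreted activin antagonist, fell in MDA-MB-231 in low serum (96.1 and 103 against 78.3 and 72.5 normalised CPM, log2 fold change -0.40, SE 0.0592, adjusted p = 4.88e-07 by edgeR). It also fell in MDA-MB-436, by 0.25 (SE 0.0664, adjusted p = 0.00134) in low serum and 0.42 (SE 0.0843, adjusted p = 0.000395) in standard serum. In MDA-MB-231 in standard serum FST stood at 235 and 241 against 224 and 218, which did not pass (adjusted p = 0.325). FSTL3, a related antagonist, rose in MDA-MB-436, by 0.52 (SE 0.0640, adjusted p = 4.61e-09) in low serum and 0.36 (SE 0.0926, adjusted p = 0.0036) in standard serum. Its reporter-positive values there were 50.8 and 50.1, and 44.2 and 53.4. The first rise was 0.27 and did not pass on the log2(TPM + 1) scale, while the second did not pass without replicate 2 of 7TGP-NEG (0.33) and was 0.21 without replicate 2 of 7TGP-POS. In MDA-MB-231 FSTL3 was 0.20 higher in low serum (SE 0.0650, adjusted p = 0.0145), a difference that was -0.00477 on the log2(TPM + 1) scale, and its change of -0.24 in standard serum did not pass (adjusted p = 0.0621, edgeR). The low serum difference did not pass without replicate 1 of 7TGP-NEG (0.12) or replicate 1 of 7TGP-POS (0.18), and the standard serum change passed without either of the MDA-MB-436 7TGP-POS libraries (-0.25).

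SMAD7, the inhibitory SMAD, fell in MDA-MB-231 and passed the test in neither comparison of MDA-MB-436. The MDA-MB-231 values were 22.8 and 23.0 against 17.8 and 18.97 normalised CPM in low serum (log2 fold change -0.32, SE 0.0834, adjusted p = 0.002 by edgeR), and 11.1 and 10.97 against 6.81 and 6.05 in standard serum (-0.78, SE 0.123, adjusted p = 7.24e-05). In MDA-MB-436 they were 13.0 and 12.8 against 13.6 and 14.1 in low serum (adjusted p = 0.402), and 9.43 and 8.73 against 11.1 and 10.2 in standard serum (adjusted p = 0.105, same test).

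**Figure D2:**
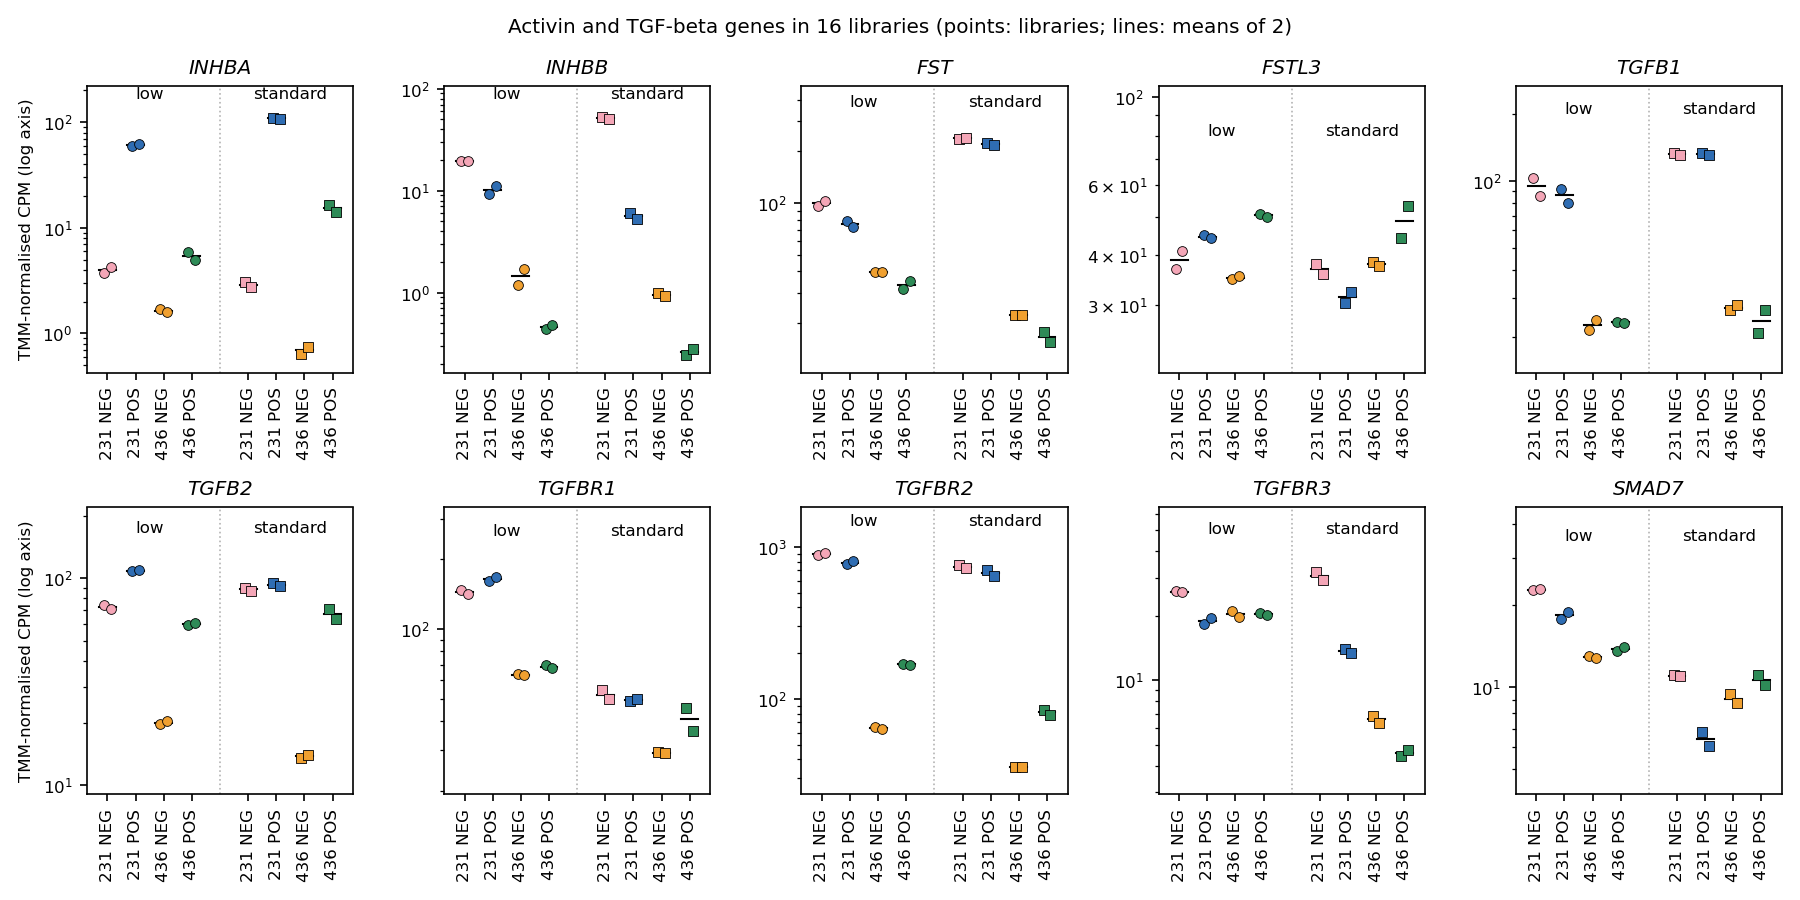
Normalised CPM (log axis, with its own range in each panel) of the 10 genes in the 16 libraries: points are libraries, black lines the means of 2 replicates, and the groups are MDA-MB-231 and MDA-MB-436 reporter-negative (NEG) and reporter-positive (POS) sublines in low serum (circles) and standard serum (squares). In its panel INHBA separates the reporter states in both lines and both serum conditions, while TGFB1, TGFBR2 and FST separate the lines in each serum condition.

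Counted over the 10 genes, 1 was a DEG in MDA-MB-231 in low serum, where 5.9% of all genes tested were, and 3 were in standard serum, where 7.69% were. In MDA-MB-436 there were 4 DEGs in each serum condition, against 10.5% and 12.5% of all genes. By the adjusted p alone, 9 genes passed in MDA-MB-231 in low serum (4 higher and 5 lower), where 38.9% of all genes did (19% higher and 19.9% lower). In its standard serum 4 passed (1 higher and 3 lower), beside 33% of all genes (16.8% and 16.2%). In MDA-MB-436 the numbers were 6 in low serum (4 higher and 2 lower), beside 52% of all genes (26.6% and 25.3%), and 8 in standard serum (5 higher and 3 lower), beside 49.5% (26.1% and 23.4%). The median log2 fold changes of the 10 genes were -0.16, -0.13, 0.11 and 0.30 in the same order, beside medians of all genes between -0.014 and 0.014.

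**Figure D3:**
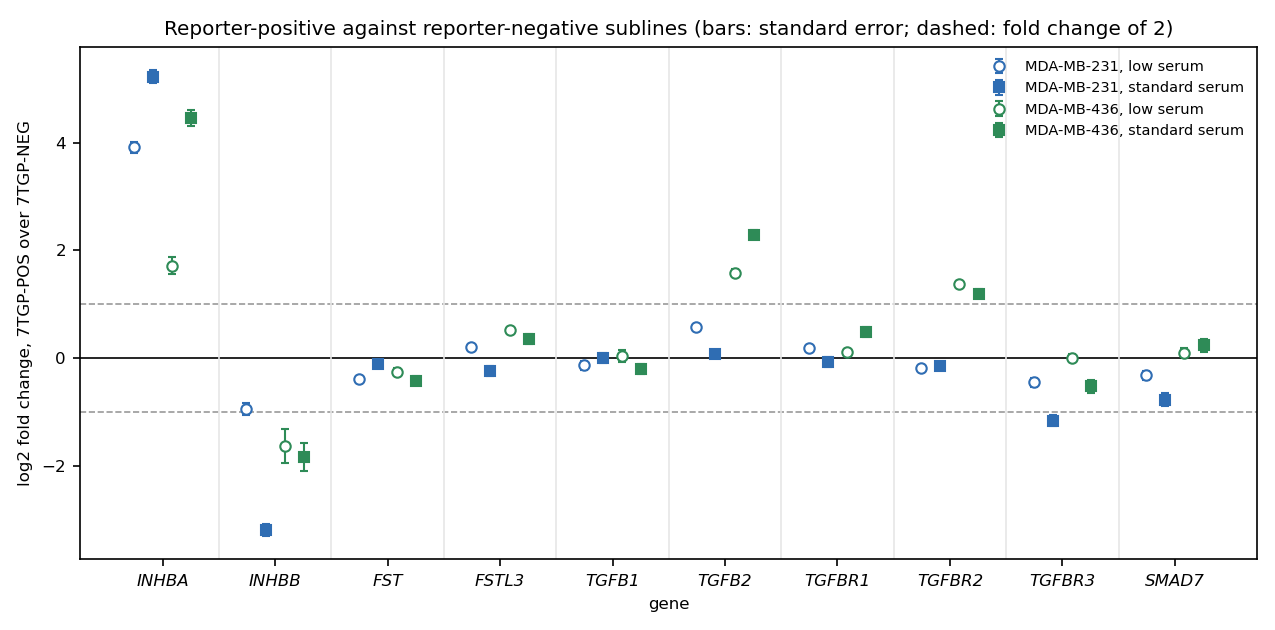
Log2 fold change of 7TGP-POS over 7TGP-NEG for each of the 10 genes (x axis) in MDA-MB-231 (blue) and MDA-MB-436 (green) in low serum (open circles) and standard serum (filled squares), from edgeR with 2 replicates per group; bars are standard errors and dashed lines mark a fold change of 2. INHBA lies above and INHBB below 0 in all 4 comparisons, while TGFB2 and TGFBR2 pass the upper dashed line only in MDA-MB-436.

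Whether a change differed between the lines was tested as an interaction, the log2 fold change in MDA-MB-231 minus that in MDA-MB-436. In low serum 6 of the 10 genes passed (adjusted p under 0.05), and in standard serum 9 did, against 45.7% and 41.2% of all genes. Of these 9, FST did not pass on the log2(TPM + 1) scale (adjusted p = 0.0612, limma) or with all biotypes (adjusted p = 0.0593, edgeR). The difference was positive for INHBA, at 2.20 (SE 0.218, adjusted p = 3.28e-11 by edgeR) in low serum and 0.77 (SE 0.229, adjusted p = 0.0109) in standard serum. Without replicate 2 of MDA-MB-436 7TGP-NEG in standard serum, whose group has 22 and 30 INHBA reads, the latter was 0.65 and no longer passed. TGFB2 and TGFBR2 changed more in MDA-MB-436, with differences of -1.0 (SE 0.0850, adjusted p = 5.39e-13) and -1.57 (SE 0.0713, adjusted p = 1.85e-21) in low serum. In standard serum they were -2.22 (SE 0.115, adjusted p = 5.01e-11) and -1.34 (SE 0.110, adjusted p = 2.34e-08, same test).

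INHBB fell further in MDA-MB-231 in standard serum (difference -1.35, SE 0.322, adjusted p = 0.00245), and its low serum difference of 0.69 (SE 0.342) did not pass (adjusted p = 0.0972, edgeR). Without replicate 1 of MDA-MB-436 7TGP-NEG that low serum difference was 0.96 and passed. The TGFB1 interaction passed in low serum without replicate 2 of MDA-MB-231 7TGP-NEG (-0.30) and in standard serum without replicate 2 of MDA-MB-436 7TGP-POS (0.37). SMAD7 and TGFBR3 went lower in MDA-MB-231 relative to MDA-MB-436 in both serum conditions. The differences were -0.41 (adjusted p = 0.00536) and -0.46 (adjusted p = 0.000821) in low serum, and -1.01 (adjusted p = 0.000101) and -0.64 (adjusted p = 0.003, edgeR) in standard serum. Neither low serum difference passed on the log2(TPM + 1) scale (adjusted p = 0.161 for SMAD7 and 0.166 for TGFBR3, limma).

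The lines also differed in the level of these genes at the same reporter state. Between the reporter-negative sublines, 7 of the 10 genes were DEGs in each serum condition, all higher in MDA-MB-231, where 41.9% (low serum) and 46.7% (standard serum) of all genes were DEGs and 20.5% and 21.3% were DEGs higher in MDA-MB-231. Between the reporter-positive sublines 6 were, again all higher in MDA-MB-231, against 38.9% and 45.4% of all genes (18.1% and 20.8% higher). By the adjusted p alone all 10 differed between the reporter-positive sublines in standard serum, as did 79.4% of all genes. Between the reporter-negative sublines in standard serum, the widest gap of the 10 genes was in INHBB, at 5.77 (SE 0.138, adjusted p = 3.31e-17) on the log2 scale, and the next in TGFBR2, at 4.38 (SE 0.0879, adjusted p = 3.23e-18, edgeR). FST, at 235 and 241 normalised CPM in MDA-MB-231 7TGP-NEG against 22.3 and 22.3 in MDA-MB-436, followed with 3.41 (SE 0.0848, adjusted p = 5.73e-17).

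Ordered by mean normalised CPM, INHBA had the same order in both serum conditions: the reporter-positive subline of MDA-MB-231 (61.0 in low serum, 109 in standard), that of MDA-MB-436 (5.42 and 15.3), the reporter-negative subline of MDA-MB-231 (4.03 and 2.90) and that of MDA-MB-436 (1.65 and 0.691). INHBB was highest in the reporter-negative (19.6 and 52.0) and then the reporter-positive subline (10.2 and 5.68) of MDA-MB-231, followed by those of MDA-MB-436 in that order (1.45 and 0.952, then 0.458 and 0.263). FST kept the order of INHBB. No neighbours in these orders overlapped. TGFB2 was higher in both MDA-MB-231 sublines than in both of MDA-MB-436, with the reporter-positive subline first in each line, and the gap between the lines was smaller in the reporter-positive sublines, with a log2 difference of 0.46 (SE 0.0779) in standard serum, than in the reporter-negative ones, with 2.68 (SE 0.0865). These 2 gaps differ by the interaction given above. TGFBR2 had the reporter-negative subline first in MDA-MB-231 and the reporter-positive one first in MDA-MB-436, with MDA-MB-231 above and no overlap. For TGFB1 the reporter states of a line overlapped at the top of the order in both serum conditions. FSTL3 was the gene with the reporter-positive subline of MDA-MB-436 at the top in both serum conditions (50.5 and 48.8), and SMAD7 in standard serum had MDA-MB-231 7TGP-POS at the bottom, 0.73 below its MDA-MB-436 counterpart on the log2 scale (SE 0.121, adjusted p = 2.2e-05 by edgeR).

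Set side by side, every gene of the 10 that passed the test in both serum conditions of a line moved the same way in both. These were INHBA, INHBB, TGFBR3 and SMAD7 in MDA-MB-231, and INHBA, INHBB, TGFB2, TGFBR2, FST and FSTL3 in MDA-MB-436. By value, INHBA changed more in standard serum than in low serum in both lines, at 5.23 against 3.92 and 4.46 against 1.72, and INHBB did so in MDA-MB-231, at -3.20 against -0.94. For INHBB in MDA-MB-436 the values of -1.85 and -1.64 give no order, as leaving out 1 library moved the latter between -1.90 and -1.37. FSTL3 in MDA-MB-231 had opposite signs, as given above. In level, FST in MDA-MB-231 stood at 72.5 to 103 normalised CPM in low serum and 218 to 241 in standard serum, while TGFBR1 stood at 142 to 167 and 48.8 to 54.4.

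The other genes of the pathway were taken from 5 lists with 61 genes in all. Like the genes counted above, the lists were chosen with earlier results of these data known. Their counts and medians beside those of all genes are therefore descriptive and not an independent comparison. Of 16 known target genes of TGF-beta and activin, 2 were DEGs in MDA-MB-231 in low serum, both higher, and 2 in standard serum, both lower, with median log2 fold changes of 0.05 and -0.11. In MDA-MB-436, 8 were higher and 1 lower in low serum and 7 were higher in standard serum, with medians of 0.94 and 0.79. There the shares of all genes that were DEGs in the higher direction were 6.52% and 6.47%, and in the lower direction 4.03% and 6.06%. In MDA-MB-231 they were 3.5% and 4.96% higher and 2.4% and 2.72% lower. The interaction passed for 11 of the 16 in each serum condition, where 45.7% and 41.2% of all genes passed.

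Named by the smallest adjusted p, the targets in MDA-MB-436 were IGFBP3 (an IGF-binding protein; 1.65), TGFBI (a matrix protein named for its induction by TGF-beta; 2.69) and FN1 (fibronectin; 1.37) in low serum. In standard serum they were CCN2 (connective tissue growth factor; 3.11), TPM1 (tropomyosin; 1.68) and IGFBP3 (1.76), all on the log2 scale with adjusted p of at most 3.96e-12 by edgeR. In MDA-MB-231 they were TGFBI (2.34, SE 0.0675, adjusted p = 4.37e-28) and the metalloprotease gene ADAM12 (1.64, SE 0.369, adjusted p = 0.000355) in low serum. In standard serum they were FN1 (-2.14, SE 0.0952, adjusted p = 3.75e-11) and the protease inhibitor TIMP1 (-1.06, SE 0.0764, adjusted p = 5.41e-09, same test). CCN2 fell in MDA-MB-231, by 0.20 and 0.51, while it rose in MDA-MB-436 by 2.51 and 3.11.

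Of the 13 SMADs and their regulators, none was a DEG in MDA-MB-231 in low serum, 1 was lower there in standard serum, and 2 were higher in MDA-MB-436 in each serum condition, where 6.52% and 6.47% of all genes were. PMEPA1, a feedback inhibitor that binds receptor-regulated SMADs, rose in MDA-MB-436 by 1.80 (SE 0.0645, adjusted p = 2.73e-25) and 2.14 (SE 0.0888, adjusted p = 1.5e-12) and fell in MDA-MB-231 by 0.51 and, as a DEG, by 1.27 (SE 0.0836, adjusted p = 1.52e-09, edgeR). SMAD6, the other inhibitory SMAD, rose in MDA-MB-436 by 1.27 (SE 0.0999) and 1.45 (SE 0.214). The transducers SMAD2, SMAD3 and SMAD4 had log2 fold changes between -0.41 and 0.45 in all 4 comparisons.

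Among 12 genes of latency and activation, which hold TGF-beta in the matrix or release it, none was a DEG in MDA-MB-231 (5.9% and 7.69% of all genes were) and 2 were in each serum condition in MDA-MB-436 (10.5% and 12.5% of all genes). THBS1 (thrombospondin-1, an activator of latent TGF-beta) rose there by 2.71 (SE 0.0562, adjusted p = 2.19e-33) and 2.88 (SE 0.0901, adjusted p = 2.85e-14 by edgeR). The integrin subunit ITGB6 rose by 1.07 in low serum and LRRC32, which holds latent TGF-beta on the cell surface, fell by 1.36 in standard serum. In MDA-MB-231 THBS1 also rose, by 0.96 and 0.50, short of a DEG. By the adjusted p, 6 of the 12 genes were higher and 1 lower in MDA-MB-231 in low serum, beside 19% and 19.9% of all genes. In its standard serum 5 were higher and 1 lower, beside 16.8% and 16.2%. MDA-MB-436 had 9 higher and 1 lower in low serum (26.6% and 25.3%), and 4 and 2 in standard serum (26.1% and 23.4%). The median log2 fold changes were 0.28, 0.26, 0.46 and 0.09 in that order.

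Of the 9 other receptors and co-receptors 8 were tested. ACVR2B, a type II receptor for activin, rose in MDA-MB-436 by 1.16 (SE 0.0701, adjusted p = 1.1e-17) and 1.25 (SE 0.123, adjusted p = 2.55e-07) and did not pass in MDA-MB-231, with -0.02 and 0.02 (edgeR). ACVRL1, a type I receptor best known from endothelium, was a DEG in all 4 comparisons on few reads. The 2 reporter-negative and then the 2 reporter-positive libraries of MDA-MB-231 held 1, 0, 13 and 9 reads in low serum, and in standard serum 0, 1, 21 and 13. In MDA-MB-436 in standard serum they held 24, 38, 1 and 2. ACVR1C, a type I receptor of the same branch, fell in MDA-MB-436 in standard serum by 1.56 (SE 0.612, adjusted p = 0.0423 by edgeR) from a mean of 0.246 to 0.0793 normalised CPM.

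Of the 11 other ligands 6 had enough counts for the test in low serum and 7 in standard serum. INHBE, the beta E subunit, rose in MDA-MB-231, by 2.31 (SE 0.585, adjusted p = 0.00138) in low serum and 1.40 (SE 0.130, adjusted p = 1.5e-07) in standard serum, where its mean went from 5.09 to 13.4 normalised CPM. INHA, the alpha subunit that turns a beta subunit into an inhibin, fell in MDA-MB-231 in low serum by 1.10 (SE 0.409, adjusted p = 0.0286), and its mean stayed under 1 normalised CPM in every group. TGFB3, the third TGF-beta, rose in MDA-MB-436 in low serum by 1.01 (SE 0.206, adjusted p = 6.61e-05, same test).

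**Figure D4:**
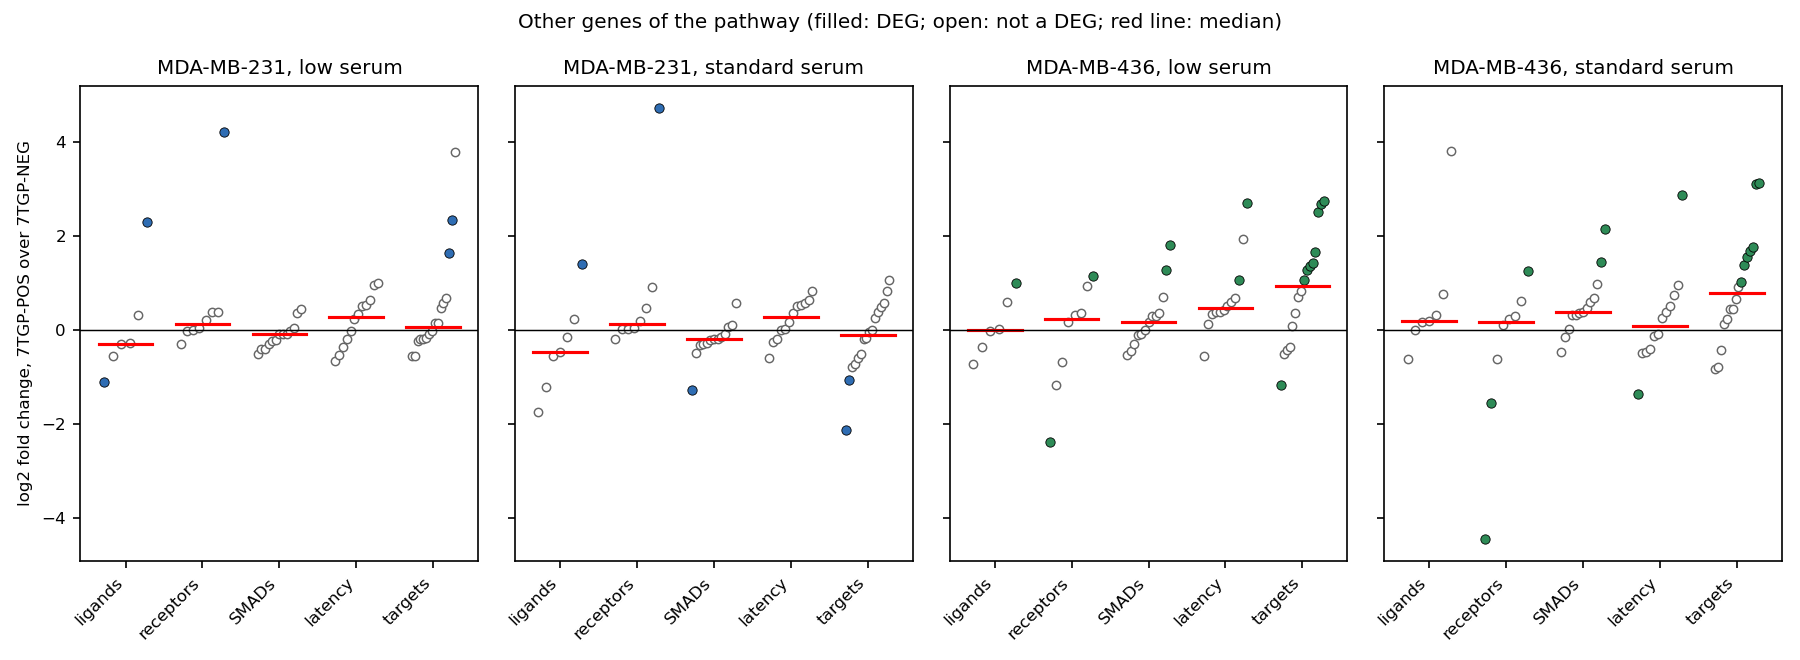
Log2 fold change of 7TGP-POS over 7TGP-NEG for the tested genes of 5 pathway lists (other ligands, other receptors and co-receptors, SMADs and their regulators, latency and activation, known target genes) in the 4 comparisons, 1 panel each; filled points are DEGs, open points are not, and red lines are list medians. The median of the target genes lies at 0.94 and 0.79 in the MDA-MB-436 panels and at 0.05 and -0.11 in those of MDA-MB-231. The lists were chosen with earlier results of these data known.

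Some marker genes also differed between the reporter states. VIM fell in MDA-MB-231 7TGP-POS by 1.05 and 1.03 on the log2 scale, while SNAI2, a mesenchymal transcription factor, rose by 0.67 and 0.70. Of 6 mesenchymal markers, 1 was a DEG lower in MDA-MB-231 in low serum and 2 in standard serum, beside 2.4% and 2.72% of all genes. In MDA-MB-436 in low serum 1 was a DEG higher, beside 6.52%. By the adjusted p, 2 were higher and 1 lower in MDA-MB-231 in low serum, beside 19% and 19.9% of all genes. In standard serum 1 was higher and 2 lower, beside 16.8% and 16.2%. The median log2 fold changes of the 6 markers there were 0.28 in low serum and 0.04 in standard serum. Their summed level, of which VIM made up 63.4% to 92.2% in each library, went from 2623 to 2687 TPM in MDA-MB-231 7TGP-NEG to 1152 to 1293 in 7TGP-POS in low serum, and from 3907 to 4314 to 1986 to 2064 in standard serum. In MDA-MB-436 it was 599 to 643 against 582 to 640, and 664 to 719 against 1029 to 1079. Of the 7 epithelial markers 1 was a DEG in any comparison (ESRP1, lower in MDA-MB-231 in standard serum, as were 2.72% of all genes). By the adjusted p, 3 were lower in MDA-MB-231 in low serum and 4 in standard serum, beside 19.9% and 16.2% of all genes. Among them were the keratin genes KRT8, KRT18 and KRT19. In MDA-MB-436, 2 were higher in low serum, beside 26.6% of all genes, and none passed in standard serum. The summed level of the 7 markers in MDA-MB-231 was 1243 to 1336 TPM in 7TGP-NEG against 749 to 836 in 7TGP-POS in low serum. In standard serum it was 1689 to 1819 against 1378 to 1460. In MDA-MB-436 the sums overlapped in both serum conditions. KRT8 and KRT18 made up 32.0% to 99.5% of the sum in each library, and KRT19 alone lay at 484 to 1115 TPM in MDA-MB-231. The sums thus mostly describe these keratin genes. CDH1 and GRHL2 stayed at or under 0.15 TPM. ESR1 was a DEG higher in MDA-MB-231 in standard serum (7.66, SE 1.12, adjusted p = 4.03e-05 by edgeR), as were 4.96% of all genes. It held 0 and 0 reads in 7TGP-NEG against 20 and 25 in 7TGP-POS. PGR was a DEG lower in MDA-MB-436 in low serum (-1.93, SE 0.464, adjusted p = 0.000545, edgeR), as were 4.03%. ESR1 reached at most 0.19 TPM in MDA-MB-231 and PGR at most 0.2 in MDA-MB-436. PTPRC rose in MDA-MB-231 in low serum by 1.14 (SE 0.188, adjusted p = 3.61e-06 by edgeR), and the 3 matched markers of other cell types summed to at most 4.21 TPM in MDA-MB-231 and 0.21 TPM in MDA-MB-436. The part of these genes in the results above was not tested.

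Genes with the most similar pattern were taken by the Euclidean distance over the 4 log2 fold changes, among 12520 protein-coding genes that averaged 1 CPM or more in both serum conditions, for the 4 members that were DEGs in at least 2 comparisons. The 3 nearest to INHBA were TTBK1 (distance 1.62), SEMA3E (1.83) and BCL2A1 (2.53), all farther away than the neighbours of the other 3 members. The distance depends on the size of the log2 fold changes, which was largest for INHBA, so these distances cannot be compared between members. Nearest to INHBB were SLC9A2 (0.763), KCNK5 (0.857) and ADGRF1 (0.946). TGFB2 lay closest to VGLL3 (0.315), HNMT (0.425) and SEMA3C (0.458). TGFBR2 lay closest to JMY (0.161), ETFBKMT (0.168) and DUSP4 (0.205), which had log2 fold changes of 1.14 to 1.31 in MDA-MB-436 and -0.25 to -0.07 in MDA-MB-231.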

How the data were processed

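RNA-Seq of 16 libraries was used. According to the methods of the study, ribosomal RNA reads were found with Bowtie, STAR aligned the reads to hg19, and the counts deposited by the authors are whole read pairs on Gencode v19 genes. The authors also deposited TPM values, and how these were calculated is not given in the sources used here. Symbols came from Gencode v44 lifted to GRCh37. The members and lists were chosen with earlier results of these data known.

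Counts were fitted per serum condition, over 8 libraries and 4 groups, with TMM and the robust quasi-likelihood model of edgeR 4.0.16 (R 4.3.3), on protein-coding genes with at least 10 counts in total. Adjusted p-values (Benjamini-Hochberg) cover all genes tested. A DEG has an adjusted p under 0.05 and changed by at least 1 on the log2 scale; SE is the absolute log2 fold change over the square root of F. DESeq2 1.42.0, limma 3.58.1 on log2 TPM, other filters and normalisations, and leaving out each library were alternatives. The fit was tested on simulated data. All 10 members are named in every comparison; of each pathway list at most the 3 DEGs with the smallest adjusted p per comparison were to be named, and the SMAD2, SMAD3, SMAD4 and CCN2 values, and those of THBS1, PMEPA1 and ACVR2B in MDA-MB-231, were added after they were seen. Replicates are called biological in the study, and no source used here says that they came from separate sorts, so p-values cover the spread between these samples. Promoter windows came from RefSeq (GRCh38.p14) and were matched to GRCh37.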

Additional observations from a re-analysis of the deposited data

Results flagged for a closer look

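The change between the reporter states differed between the cell lines, by the test of the difference itself, for 15 pairs of gene and serum condition. The values are the log2 fold change in MDA-MB-231 minus that in MDA-MB-436 (edgeR's quasi-likelihood test, adjusted p under 0.05, as for 45.7% of all genes in low serum and 41.2% in standard serum). In low serum they were 2.20 for INHBA, -1.0 for TGFB2, -1.57 for TGFBR2, -0.46 for TGFBR3, -0.41 for SMAD7 and -0.33 for FSTL3. In standard serum they were 0.77 for INHBA, -1.35 for INHBB, -2.22 for TGFB2, -1.34 for TGFBR2, -0.64 for TGFBR3, -1.01 for SMAD7, -0.60 for FSTL3, -0.56 for TGFBR1 and 0.32 for FST. The last had an adjusted p of 0.0296 and no longer passed without any 1 of 7 of the 8 libraries (0.22 without replicate 2 of MDA-MB-436 7TGP-POS). The low serum difference of FSTL3 no longer passed without replicate 2 of MDA-MB-231 7TGP-NEG (-0.25).

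FSTL3 in MDA-MB-231 was 0.20 higher on the log2 scale in the reporter-positive subline in low serum, while in standard serum the value was -0.24, and the reporter states overlapped in neither. This difference between serum conditions was not tested, since the conditions also differ in days in culture and, by the study's methods, in library preparation.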

How the results depend on the processing

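Leaving out each library in turn kept the direction and the side of the threshold of 778 of 800 log2 fold changes, and the other alternatives kept those of 1203 of 1310; a group left with 1 library is assumed to vary like the others. For a comparison of 2 groups, the 800 include the loss of libraries from the other groups. Such a loss acts only through the normalisation and the shared spread, so the total overstates how stable the values are to losing a replicate compared. With the adjusted p alone as the call, 9 members passed in MDA-MB-231 in low serum, 8 in MDA-MB-436 in standard serum and 10 between the reporter-positive sublines in standard serum, and of all genes 6250 and 8348 (MDA-MB-231 first) passed in low serum, and 5084 and 7631 in the other. With glmTreat against a fold of 2 the counts over all genes were 352, 922, 521 and 975, for adding that bound to the test. With DESeq2's Wald test they were 771, 1425, 943 and 1573, and 4 members passed the interaction in low serum, SMAD7 and FSTL3 no longer doing so. The numbers of all genes that passed the interaction are not given here for DESeq2 or with a library left out. Member counts for the interaction therefore cannot be set against them. Leaving out 1 library gave 827 to 941, 1578 to 1689, 1006 to 1190 and 1704 to 1982 DEGs in that order. Member counts then ran from 1 to 2 in MDA-MB-231 in low serum (INHBB passed without replicate 2 of MDA-MB-231 7TGP-POS), from 6 to 7 for the interaction in low serum and from 7 to 9 in standard serum, and the others stayed the same.

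The deposited TPM moved the median of all genes in low serum to -0.13 (MDA-MB-231) and -0.15 (MDA-MB-436) on the log2(TPM + 1) scale, and several changes of members near 0 had the other sign there. On that scale 2 members were called in MDA-MB-231 and 2 in MDA-MB-436 in low serum, 3 passed the interaction in low serum and 4 the comparison of the reporter-negative sublines. For the interaction and the reporter-negative comparison, the numbers of all genes on the TPM scales are not given here. Member counts of these comparisons therefore cannot be set against them. INHBA and INHBB in MDA-MB-436 in low serum, INHBB there in standard serum (-0.67) and TGFBR3 in MDA-MB-231 in standard serum were no longer DEGs, and the low serum interactions of TGFBR3, SMAD7 and FSTL3 did not pass. The standard serum interaction of FST did not pass either (0.26). DEGs over all genes were 302 (140 higher and 162 lower, against 563 and 385) and 793 (322 and 471, against 1047 and 647) in low serum, and in standard serum 522 and 941; with a mean TPM of at least 1 they were 285, 701, 476 and 850, in the same order. With log2(TPM + 0.1), 2, 3 and 4 members were called in MDA-MB-231, the interaction and the reporter-negative comparison. The calls of INHBA, INHBB and TGFBR3 between reporter states that were lost with log2(TPM + 1) were kept with log2(TPM + 0.1). The interactions that did not pass with log2(TPM + 1) again did not pass. In MDA-MB-231 in low serum TGFBR1 turned to -0.0175 and -0.0178 under pseudocounts of 1 and 0.1, and FSTL3 to -0.00477 and -0.00501. In MDA-MB-436 in low serum the values under log2(TPM + 1) and log2(TPM + 0.1) were -0.21 and -0.24 for TGFBR3, -0.127 and -0.132 for TGFBR1, -0.14 and -0.15 for SMAD7, and -0.20 and -0.21 for TGFB1. Between the reporter-negative sublines in low serum they were -0.0507 and -0.0568 for TGFBR3 and -0.25 and -0.26 for FSTL3. The INHBB interaction in low serum was -0.27 with log2(TPM + 1), where its TPM in MDA-MB-436 lay between 0.31 and 1.46. TGFB1 in MDA-MB-231 in standard serum was 0.034 under both, and 0.011 with the 4 libraries of the line alone. TGFBR3 in MDA-MB-436 in low serum was -0.032 with DESeq2 size factors and with DESeq2, -0.030 with filterByExpr and -0.0052 with all biotypes, and FSTL3 between the reporter-negative sublines in standard serum was 0.0010 with all biotypes. None of these passed the test in the fit reported, apart from TGFBR1 and FSTL3 in MDA-MB-231 and both genes between the reporter-negative sublines in low serum. Leaving out 1 library also turned TGFB1 in MDA-MB-231 (-0.26 to 0.0024 in low serum and -0.020 to 0.011 in standard serum) and in MDA-MB-436 in low serum (-0.037 to 0.11), TGFBR3 there (-0.055 to 0.052), and FSTL3 between the reporter-negative sublines in standard serum (-0.081 to 0.0025). By the adjusted p, SMAD7 in MDA-MB-436 in standard serum passed on the log2(TPM + 1) scale (0.30) and TGFB1 in MDA-MB-231 in low serum on the log2(TPM + 0.1) scale (-0.34), while TGFBR2 in MDA-MB-231 in low serum did not pass with all biotypes (-0.15). The cause was not tested.

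Same-numbered replicates of the reporter states of a line correlated in their deviations at -0.00049 (MDA-MB-231) and -0.116 (MDA-MB-436) in low serum, and at 0.226 and 0.164 in the other condition, where 4 of the 6 pairs of groups were over 0.1 and the lowest was -0.0297. No source says what the numbers share and not every pair was over 0.1, so the numbers were not taken to pair samples. Blocking on the replicate number, which adds 1 term for replicate 2 against replicate 1 shared by the groups, left 926, 1667, 1170 and 1938 genes as DEGs, and 1, 4, 3 and 4 members, as without it. A crossed block for MDA-MB-436 in low serum, chosen after seeing the data, gave 1695 genes and 4 members. The low values of INHBB in MDA-MB-436 and of ACVRL1 rest on few reads, and groups of 2 limit every SE.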
